A study of Mus musculus with 4 samples.

Results

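Fos, Fosb, Jun, Junb, Egr1, Egr2, Atf3, Ier2, Klf4 and Rhob, 10 of the 32227 genes counted in the feature lists, are immediate early genes whose RNA often climbs while a tissue is being taken apart into single cells. They were given as a list and found by their symbols, with 1 entry each. No measured value defines the list, but it was drawn up with earlier results of these data known. Their levels were read in 4 single-cell libraries from small-intestinal epithelium of wild-type (WT) C57BL/6J mice at postnatal day 6 (P6). Replicate 1 of the ileum and of the jejunum came from 1 mouse labelled male (batch 1), and replicate 2 of both regions from 1 mouse labelled female (batch 2), so mouse, labelled sex and batch cannot be told apart. The labels name no transgene and no treatment. In all libraries the epithelium was lifted off with EDTA, dissociated with dispase II on a warmed mechanical dissociator and captured with the PIPseq 3′ kit. No undissociated tissue was measured in these libraries, so the level of these genes before dissociation is unknown.

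Immediate early genes are transcribed within minutes of a growth factor, a calcium signal or a physical or chemical insult, without new protein being made first, and most of their RNAs are short-lived. Fos, Fosb, Jun and Junb encode subunits of the transcription factor AP-1, in which a Fos-type protein pairs with a Jun-type protein, and Atf3 encodes a related basic leucine zipper factor of the stress response. Egr1 and Egr2 encode zinc finger factors, and Klf4 encodes a zinc finger factor that in the gut is also a known gene of differentiated epithelium and goblet cells. Ier2 encodes a small nuclear protein, and Rhob a small GTPase that acts on endosomes and the actin skeleton. In the intestine, enzymatic dissociation of crypts and villi is a known setting for their induction, and AP-1 genes also respond to growth signals in crypts.

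Promoter sequence is shown for 5 members as examples, the 4 Fos- and Jun-type AP-1 genes and Rhob, which was called in 3 of the 5 comparisons tested across genes. RefSeq promoters of build GRCm38.p6 matched 8 of the 10 members, while Egr1 and Ier2 had no entry. The 150 bases before the RefSeq start follow, read 5′ to 3′ on the gene's own strand, for Fos (chr12:85473740-85473889, plus strand), Fosb (chr7:19310046-19310195, minus strand), Jun (chr4:95052223-95052372, minus strand), Junb (chr8:84978749-84978898, minus strand) and Rhob (chr12:8500010-8500159, minus strand). Capitals mark the motif matches named after the sequences.
Fos: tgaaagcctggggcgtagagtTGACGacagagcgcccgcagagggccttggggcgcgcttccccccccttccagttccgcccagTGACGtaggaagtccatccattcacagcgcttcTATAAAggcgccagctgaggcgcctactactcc
Fosb: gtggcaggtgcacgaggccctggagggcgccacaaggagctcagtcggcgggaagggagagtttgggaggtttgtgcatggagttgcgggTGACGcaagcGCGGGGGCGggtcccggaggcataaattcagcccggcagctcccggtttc
Jun: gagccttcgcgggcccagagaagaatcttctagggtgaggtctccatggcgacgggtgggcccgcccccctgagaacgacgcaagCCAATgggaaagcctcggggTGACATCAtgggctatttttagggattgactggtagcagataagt
Junb: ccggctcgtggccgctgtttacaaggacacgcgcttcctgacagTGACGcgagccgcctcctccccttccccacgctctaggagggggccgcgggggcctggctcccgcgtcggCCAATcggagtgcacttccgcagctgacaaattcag
Rhob: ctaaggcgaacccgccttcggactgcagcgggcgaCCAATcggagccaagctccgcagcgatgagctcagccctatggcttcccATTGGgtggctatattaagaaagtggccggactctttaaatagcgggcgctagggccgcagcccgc

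The 250 bases before each start were searched. A member with more than 1 RefSeq promoter, such as Egr2, was counted if any of them had the motif. Shares of all are per promoter, so the member counts and these shares are not like measures. The core of the cAMP response element, TGACG on either strand, was in the promoters of 6 of the 8 matched members (Fos, Fosb, Junb, Egr2, Atf3 and Klf4) and in 17.8% of 32851 RefSeq promoters of the same length. A full element, TGACNTCA on either strand, was in that of Jun and in 7.49% of all, and TGACG lies inside it only where N is G. The CCAAT box, on either strand, was in those of Jun, Junb, Egr2 and Rhob and in 33.8% of all. The sequence TATAAA on the given strand was in that of Fos and in 7.59% of all, and GCGNGGGCG, bound by Egr proteins, was in those of Fosb and Klf4 and in 4.70% of all. The CArG box bound by serum response factor was in that of Egr2 and in 1.47% of all, and the AP-1 site TGANTCA was in none of the 8 and in 6.75% of all. A match is a match of letters in this window and says nothing of whether a factor was bound. Sequence further from the start was not searched, so a motif missing here may lie outside the window.

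Sex-linked RNA went against the sex label of all 4 libraries. Xist, which is transcribed from the inactive X chromosome, reached 575 and 466 counts per 1000000 UMIs (CPM) in replicate 1 (labelled male), ileum first, but 0.705 and 0.907 CPM in replicate 2 (labelled female). Eif2s3y, a gene of the Y chromosome, reached 0.0115 and 0.119 CPM in replicate 1 against 88.1 and 67.0 CPM in replicate 2, so replicates are named here by number only. Region markers went with the region labels. Fabp6, a bile acid carrier of the ileum, reached 205 and 359 CPM in the ileum libraries against 0.425 and 0.302 CPM in those of the jejunum, and Gata4 32.8 and 51.4 against 116 and 113 CPM. The 4 libraries held 57946770 to 131395559 UMIs and 5722 to 8997 kept cells, 30521 in all. Depth and the share of UMIs from mitochondrially encoded genes (the mt- share, which often climbs in damaged cells) went with region. The median was 12047.5 and 10916 UMIs per kept cell in the ileum against 4689 and 5883.5 in the jejunum, and the median mt- share was 3.61% and 3.74% against 6.37% and 9.94%. No barcode of a kept cell was shared between libraries. Most kept cells, 26400, were enterocyte-like by their markers, 2038 were stem/progenitor-like, 255 enteroendocrine-like, 55 immune-like and 20 goblet-like, and 1753 stayed unnamed.

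In enterocyte-like cells, the absorptive cells of the villus, every member was detected in every library, and Jun stood highest. Summed over the class, Jun was at 1123 and 1028 CPM in ileum replicates 1 and 2 and at 836 and 895 CPM in jejunum replicates 1 and 2, and it made up 29.8% to 35.8% of all UMIs of the 10 genes. Because each UMI counts 1 molecule at its 3′ end, levels of different genes were set side by side without scaling to length. The neighbours below Jun lay close together. Atf3 was at 471, 315, 409 and 420 CPM and Junb at 344, 335, 378 and 339 CPM in the same order of libraries, and their ranges overlapped. Rhob (286, 275, 258 and 323 CPM), Fos (235, 259, 249 and 314 CPM) and Ier2 (248, 240, 188 and 204 CPM) followed, and each of these overlapped with the next. Egr1 followed at 234, 136, 199 and 182 CPM and Klf4 at 219, 182, 125 and 131 CPM. Fosb was at 103, 90.6, 112 and 176 CPM, with its highest value in jejunum replicate 2, the library with the highest mt- share. Egr2 was far below the others, at 19.1, 15.7, 13.1 and 17.6 CPM, with no overlap with any other member.

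**Figure D1:**
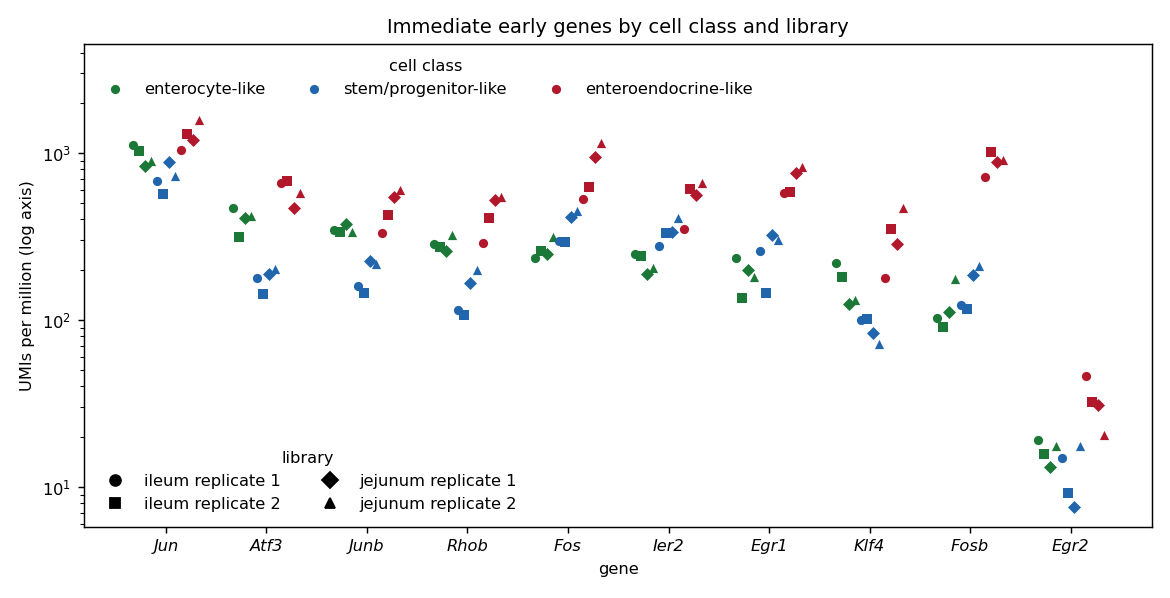
Level of each immediate early gene, in CPM on a log axis, in enterocyte-like, stem/progenitor-like and enteroendocrine-like cells. Each point is 1 library, with UMIs summed over its cells of that class. Jun is highest and Egr2 lowest in enterocyte-like cells, and the Fosb points of enteroendocrine-like cells (715 to 1018 CPM) stand above all other Fosb points (90.6 to 210 CPM).

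Shares of cells with at least 1 UMI move with depth, so each cell was also thinned to 2000 UMIs, which left out 46, 275, 673 and 194 enterocyte-like cells that were shallower, in ileum replicates 1 and 2 and jejunum replicates 1 and 2. At this depth Jun was seen in 83.7%, 82.6%, 75.1% and 77.8% of enterocyte-like cells, against 96.9%, 95.8%, 89.9% and 92.3% before thinning. Atf3 was seen in 54.1%, 42%, 51.2% and 50.5% and Fos in 32.9%, 36.7%, 37.1% and 42.4%. For Fos the unthinned shares were 73.5%, 74.8%, 61.9% and 71.8%, so the order of the regions depended on depth. Fosb was seen in 17.2% and 15% of the cells in the ileum and in 19.9% and 29.3% in the jejunum, while Klf4 was seen in 33.4% and 31.3% against 20.8% and 21.7%. Egr2, with 2.00% to 3.34% of cells, was close to the limit of what 2000 UMIs can show. At least 1 of the 10 genes was seen in 97.5%, 97.6%, 95.8% and 96.3% of the cells. No cell class here is known to lack these genes, so no share could be set as the background from RNA free in the droplets. The ratio of Fosb to Jun was 0.0881 to 0.197 in enterocyte-like, 0.181 to 0.289 in stem/progenitor-like, 0.583 to 0.781 in enteroendocrine-like and 0.0889 to 1.68 in the few immune-like cells. The first 2 ranges overlapped, and the part of free RNA was not tested. The 10 genes together gave 6.0 ± 0.583 UMIs per enterocyte-like cell at 2000 UMIs in the ileum and 5.62 ± 0.324 in the jejunum (SD, n = 2 libraries each). This difference of 0.380 was within the spread of the libraries (exact permutation test, two-sided p = 0.667, where the 3 possible splits allow no p below 0.333), and it was -0.0321 without ileum replicate 1 and 0.0927 with 2000 nuclear-gene UMIs per cell.

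**Figure D2:**
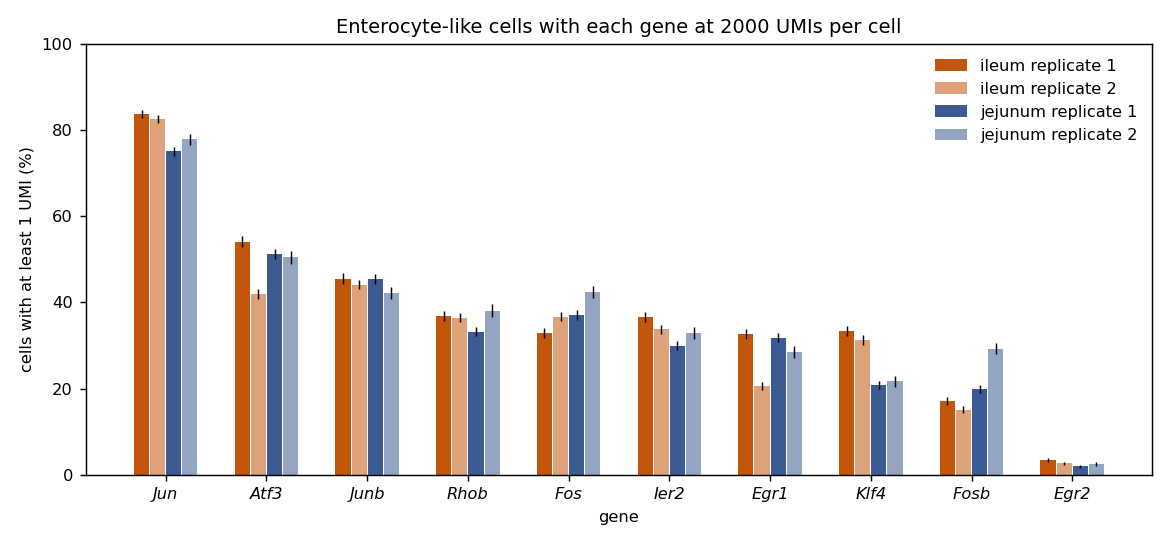
Share of enterocyte-like cells with at least 1 UMI of each gene after thinning every cell to 2000 UMIs, by library. Bars start at 0, and error bars are exact 95% binomial (Clopper-Pearson) intervals, which cover counting error only. Jun is seen in 75.1% to 83.7% of cells and Egr2 in 2.00% to 3.34%, and Klf4 is higher and Fosb lower in both ileum libraries.

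RNA of the members was spread over most enterocyte-like cells. At 2000 UMIs a cell had a mean of 3.45 to 3.76 different members over the 4 libraries, and 5 or more members were seen in 26.1% to 33.2% of cells. The tenth of cells with the most member UMIs held 20.8% to 21.0% of them. No member was seen in 2.46%, 2.45%, 4.2% and 3.67% of the cells. If members were seen independently of each other, these shares would be 0.392%, 0.678%, 0.826% and 0.586%. Across cells, pairs of members went together only weakly. The correlation of log counts within libraries averaged 0.0572 over the 45 pairs, from -0.0306 for Ier2 with Klf4 to 0.154 for Jun with Atf3, with about 1 UMI or less per cell for most genes and all cells at the same depth. Each member was also set against the sum of the other 9. Jun (mean r over the 4 libraries 0.242), Atf3 (0.235) and Rhob (0.192) followed that sum most closely, and Klf4 followed it least (0.0155, from -0.0493 in ileum replicate 1 to 0.0742 in jejunum replicate 2). Of 5340 genes ranked by the correlation with the summed members, the 10 non-members most like them were Klf6 (0.261), Zfp36 (0.232), Ccn1 (0.226), Cldn4 (0.204), Hbegf (0.200), Ifrd1 (0.184), Pik3c2a (0.154), Btg2 (0.149), Arl4a (0.143) and Bnip5 (0.142). Klf6, Zfp36, Ccn1, Hbegf and Btg2 were already on the list of 54 other early response genes. These values describe cells that share libraries, depth and handling, and none was tested.

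One enterocyte-like cluster had little RNA of any member. Clusters had been formed without the 10 genes, mt- genes and the early response, heat shock and stress response lists compared below. This cluster, led by Hnf4aos, Gm41361 and Adcy3, held 161, 130, 181 and 156 cells. It was picked because its values were low, so what follows is a description. Each of the 10 members was at its lowest there among the 16 enterocyte-like clusters. Their sum was 967, 845, 533 and 570 CPM, against 3349, 2915, 2849 and 3140 CPM in the other enterocyte-like cells of the same libraries. At 2000 UMIs, 23.6%, 27.7%, 47.5% and 38.5% of its cells had no member UMI, against 1.91%, 2.00%, 3.07% and 2.36% of the others. Atf3, the stress factor, was furthest below, at 48.7, 39.8, 38.6 and 30.2 CPM against 484, 320, 423 and 442 CPM, a log2 difference of -3.87 to -3.01. Fosb (-3.32 to -2.22), Rhob (-3.08 to -2.0), Egr1 (-2.92 to -2.04) and Fos (-2.48 to -2.05) came next. Junb (-2.28 to -1.71) and Jun (-2.23 to -1.62) were less far below, and Ier2 (-1.75 to -1.15) and Klf4 (-1.84 to -0.52) least. Egr2 gave 3, 0, 2 and 3 UMIs in the cluster, too few for a ratio. In all 4 libraries the cluster was the lower for each of the 10 genes.

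These cells were not shallow and kept their enterocyte markers. Their median depth was 14696, 12414, 9271 and 12209.5 UMIs against 13900, 11860, 4567 and 5408, and their median mt- share 3.40%, 3.81%, 4.41% and 5.89% against 3.56%, 3.67%, 6.01% and 10.0%. The summed enterocyte markers were at 15509, 20197, 49887 and 51484 CPM against 18159, 21576, 46095 and 46263 CPM. The other early response genes, a list without the 10 members, were also lower, at 3370, 2747, 2353 and 2573 CPM against 6771, 5640, 6004 and 6434 CPM. Heat shock genes, which code for chaperones, stood at 2407, 2650, 2251 and 2370 CPM against 2463, 2623, 2334 and 2590 CPM, so the lists did not all differ to the same degree. Genes of the amino acid and endoplasmic reticulum stress response were between these, at 489, 479, 434 and 523 CPM against 697, 743, 699 and 864 CPM. Why this cluster was low was not tested.

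**Figure D3:**
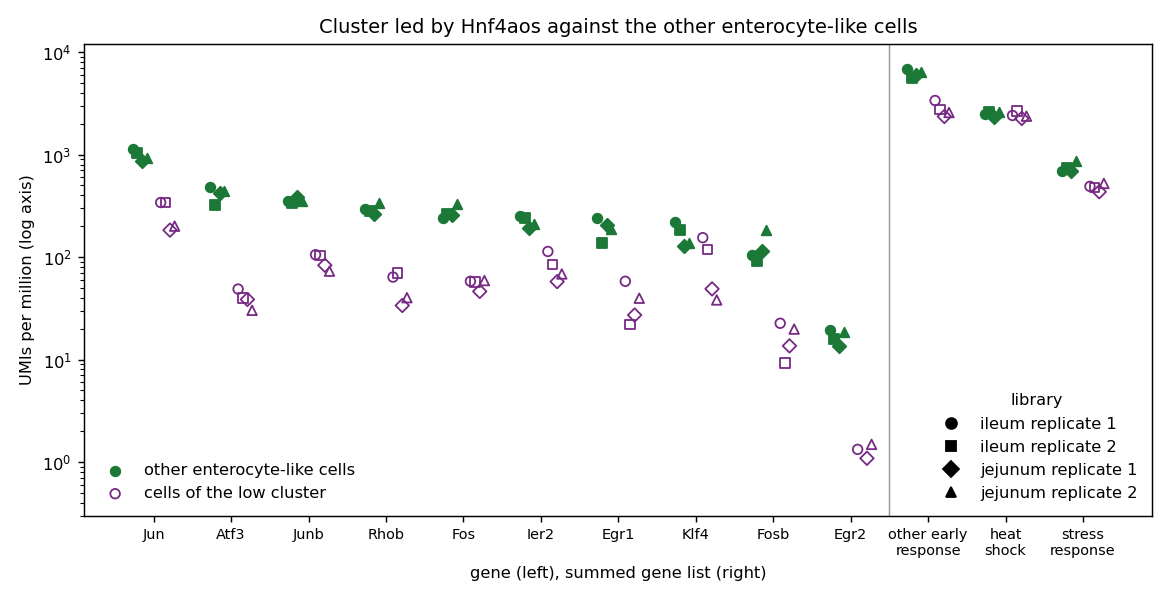
Level of each immediate early gene, and of 3 summed gene lists, in CPM on a log axis, in the low enterocyte-like cluster (open symbols) and in the other enterocyte-like cells (filled symbols). Each symbol is 1 library, and the 1 library with no Egr2 UMI in the cluster is not drawn. All 10 genes are lower in the cluster in each library, while the heat shock list overlaps (2251 to 2650 against 2334 to 2623 CPM).

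Between cell classes, the enteroendocrine-like cells, the hormone-secreting cells of the epithelium, carried the highest level of the members. Their 10-gene sum was 4728, 6047, 6193 and 7309 CPM, from 71, 71, 67 and 46 cells, against 3282, 2876, 2767 and 3001 CPM in enterocyte-like cells. Fosb stood out most, at 715, 1018, 887 and 914 CPM, 2.38 to 3.49 log2 units above enterocyte-like cells of the same library. It was seen in 57.1%, 65.7%, 50% and 60% of enteroendocrine-like cells at 2000 UMIs. Fos was at 531, 627, 944 and 1141 CPM (1.18 to 1.92 log2 units above) and Egr1 at 574, 588, 760 and 819 CPM (1.30 to 2.17). Ier2 was 0.51 to 1.70, Egr2 0.23 to 1.28, Atf3 0.19 to 1.11 and Rhob 0.02 to 1.02 log2 units above. Jun (-0.10 to 0.81), Junb (-0.06 to 0.82) and Klf4 (-0.30 to 1.83) were above in some libraries only. Among the AP-1 subunits, then, the Fos-type genes were higher in enteroendocrine-like cells of each library, and the Jun-type genes of 3 libraries. The median mt- share of enteroendocrine-like cells was 2.68% to 4.46%, and their median depth was 3198 to 5328 UMIs.

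Stem/progenitor-like cells of the crypts had another balance. Relative to enterocyte-like cells, Atf3 (-1.39 to -1.06 log2 units), Rhob (-1.36 to -0.64), Junb (-1.21 to -0.65) and Klf4 (-1.12 to -0.57) were lower in each of the 4 libraries. Ier2 (0.15 to 1.00), Fos (0.18 to 0.73), Fosb (0.25 to 0.72) and Egr1 (0.09 to 0.73) were higher in each, while Jun (-0.86 to 0.09) crossed 0 and Egr2 was -0.80 to -0.00. The class included a cluster of 447 cells with no class marker among its leading genes and a median mt- share of 9.46%. This cluster is described below with its 10-gene sum, and its part in these class values was not tested. In the 10 to 20 immune-like cells of a library Junb was the leading member, at 831, 871, 1075 and 957 CPM, or 31.5% to 42.8% of all member UMIs. The 20 goblet-like cells were too few to describe by library, and over all of them Klf4 led at 645 CPM. Class comparisons are given as values with no test, because classes of 1 library share its handling.

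Whether the members differed between the regions was tested in enterocyte-like cells first, with UMIs summed per library and the library as the unit. None of the 10 passed the edgeR quasi-likelihood test at an adjusted p of 0.05, where 6.66% of the 19686 genes tested did (3.86% higher and 2.8% lower in the ileum). The median log2 difference was -0.16 over the members and -0.01 over all genes tested. At an unadjusted p under 0.05 there were 2, Klf4 and Fosb, and DESeq2 called both. Klf4 was 0.54 ± 0.14 (SE) log2 units higher in the ileum (adjusted p = 0.0769), and its CPM did not overlap between the regions. With the mouse as a block, which pairs the libraries of each animal, the same difference of 0.54 passed (adjusted p = 0.0462). Fosb was 0.69 ± 0.25 log2 units lower in the ileum (log2 difference -0.69, adjusted p = 0.145). Its difference was -0.27 without jejunum replicate 2, and -1.0 (adjusted p = 0.0483) without jejunum replicate 1. The others lay between -0.30 (Fos, adjusted p = 0.340) and 0.21 (Ier2, adjusted p = 0.358), with Jun at 0.20, Egr2 at 0.06, Egr1 and Rhob at -0.16, and Junb and Atf3 at -0.19. Jun, Ier2 and Klf4 were higher in both ileum libraries than in either jejunum library, where 37.5% of all genes were, and Fosb was lower, where 24.5% were. Adding the unnamed cells to this class took all genes called from 1311 to 1370, and no member was called.

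Among the wider lists, 2 of 52 tested other early response genes were higher in ileum enterocyte-like cells and 3 lower. The former were the growth factor gene Ereg (2.93 log2 units) and Csrnp1 (0.99), and the latter were Btg2 (-1.72), the growth factor gene Areg (-1.59) and Dusp6 (-1.2), which encodes an ERK phosphatase. Of the 12 heat shock genes 0 passed with edgeR or DESeq2 and 1 had an unadjusted p under 0.05, and of 10 stress response genes Vldlr was higher (3.43) and Ddit4 lower (-0.83). Summed enterocyte markers, depth and mt- share also went with region here. Enterocyte markers were at 18772 and 22431 CPM of nuclear-gene UMIs in the ileum against 48997 and 50260 CPM in the jejunum, and the median mt- share was 3.55% and 3.67% against 5.88% and 9.78%. Depth and mt- share were varied in alternative fits. No member was called with cells thinned to 2000 UMIs, sums thinned to the smallest total, mt- genes left out or an mt- share under 10%. In cells with an mt- share of 5% to 10%, Klf4 was 0.91 log2 units higher in the ileum and passed. The part of the enterocyte markers was not tested.

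In stem/progenitor-like cells several members were lower in the ileum. Rhob reached 114 and 107 CPM in ileum libraries against 166 and 200 CPM in jejunum libraries. Fosb was at 123 and 117 against 185 and 210 CPM, and Junb at 160 and 145 against 225 and 215 CPM. The regions did not overlap for any of the 3. Rhob (-0.78 ± 0.15, adjusted p = 0.0194), Fosb (-0.78 ± 0.14, adjusted p = 0.0143) and Junb (-0.58 ± 0.13, adjusted p = 0.0478) were called lower in the ileum, 3 of 10 members where 1.2% of the 12655 genes tested were called lower, 1.21% higher and 2.41% in either direction. The median log2 difference was -0.51 over the members and 0.01 over all genes tested. Fos (298 and 295 against 411 and 447 CPM, -0.59, adjusted p = 0.0532), Egr1 (257 and 144 against 325 and 301 CPM, -0.69, adjusted p = 0.148) and Jun (676 and 567 against 889 and 727 CPM, -0.43, adjusted p = 0.198) did not pass. Ier2 (-0.35), Atf3 (-0.32) and Egr2 (-0.12) did not pass either, and Klf4 was on the other side at 0.33 (adjusted p = 0.348). Of the 10, 8 were lower in both ileum libraries than in either jejunum library, where 17.2% of all genes were, and Klf4 was higher, where 27.9% were.

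**Figure D4:**
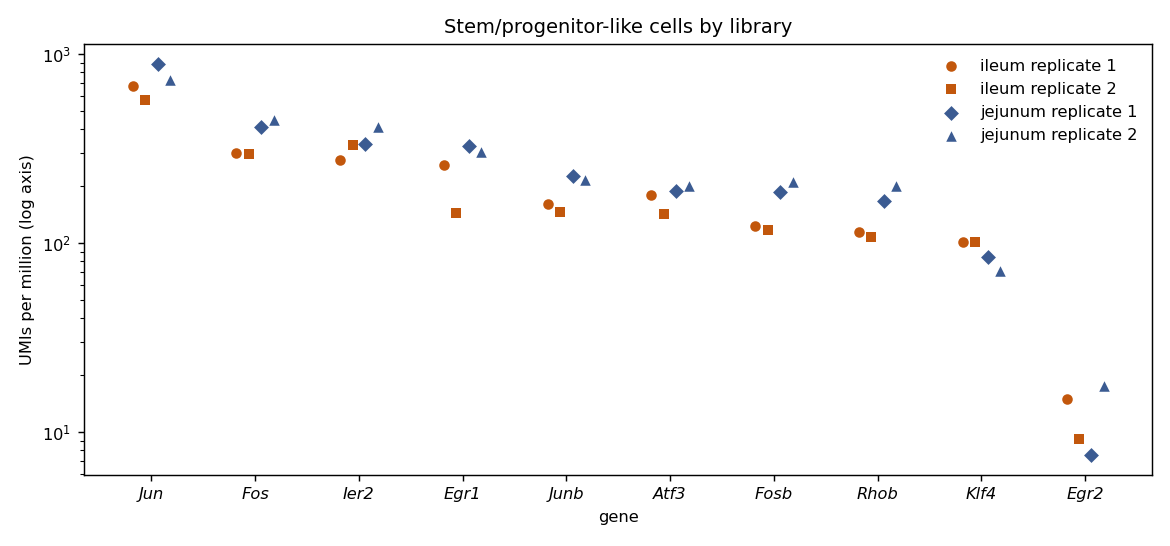
Level of each immediate early gene, in CPM on a log axis, in stem/progenitor-like cells of each library (460 to 558 cells). Rhob, Fosb and Junb, the 3 genes called, are lower in both ileum libraries, and Klf4 is the 1 gene with both ileum libraries higher.

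With the mouse as a block 7 members were called lower: Fosb, Rhob, Egr1 (-0.74), Fos (-0.59), Junb, Jun (-0.43) and Ier2 (-0.35), while all genes called went from 305 to 1308. Several measures moved with region in this class. The median mt- share was 4.16% and 4.69% in the ileum against 7.74% and 8.48% in the jejunum. The 11 enterocyte markers summed to 3621 and 3603 against 6686 and 7595 CPM, and the 12 stem/progenitor markers to 4124 and 3918 against 5372 and 4934 CPM. Within cells with an mt- share of 5% to 10% none of the 9 members tested was called, and Fosb was at -0.16, Junb at -0.39 and Rhob at -0.95. A cluster of 447 cells (74, 71, 135 and 167) within this class, led by Celf2, Fsip1 and Ccnb1ip1 with no class marker among its leading genes, carried a 10-gene sum of 4727, 5023, 5430 and 5701 CPM. Without it Fosb (-0.83) and Rhob (-0.75) were called and Junb (-0.44) was not. The number called was 1 without ileum replicate 1 (Egr1, -1.15), 0 without ileum replicate 2, 5 without jejunum replicate 1 and 4 without jejunum replicate 2, while 201, 306, 841 and 409 of all genes were called in these fits. Of the wider lists, Ereg was higher in the ileum (1.66, 1 of 50 other early response genes, and 0 of 50 with DESeq2) and 3 of 11 heat shock genes were lower, namely Hspa1a (-1.36), Hspa1b (-1.26) and Dnaja1 (-0.65). The inducible chaperone genes Hspa1a and Hspa1b are near-identical copies, so reads between them are uncertain. In the stress response list Ddit4 (-0.84) and Atf4 (-0.73) were lower, 2 of 8.

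The mt- share divided the members into genes that fell, a gene that rose and genes that did not pass. Enterocyte-like cells with an mt- share of 10% to 20% (232, 483, 2132 and 2196 cells) were compared with those under 5% (4789, 5324, 3466 and 1112 cells) within each library, on nuclear genes alone. Rhob was at 307, 299, 308 and 409 CPM in low cells and at 182, 191, 196 and 270 CPM in high cells. Junb was at 364, 361, 452 and 419 against 256, 260, 272 and 304 CPM, and Egr2 at 20.5, 17.2, 15.8 and 21.1 against 10.4, 8.99, 8.23 and 16.0 CPM. All 4 libraries moved the same way for these 3 genes. With the library as a block, Rhob (-0.76 ± 0.11, adjusted p = 0.000264), Junb (-0.64 ± 0.11, adjusted p = 0.000832) and Egr2 (-0.80 ± 0.16, adjusted p = 0.00271) fell. Such calls were common in this comparison, where 32.5% of the 14540 genes tested passed, 18.2% of them lower and 14.3% higher in high cells. The count of 4 of 10 members is therefore close to that of all genes, and the median log2 difference was -0.20 over the members and 0.02 over all genes.

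Fosb was the member that rose, from 107, 94.0, 110 and 153 CPM in low cells to 145, 106, 175 and 272 CPM in high cells (0.45 ± 0.13, adjusted p = 0.0203). Its share of cells at 2000 nuclear-gene UMIs went from 17.0%, 14.7%, 18.7% and 23.5% to 25.9%, 18.9%, 27.0% and 38.1%. This call rested on single libraries: Fosb was at 0.49 without ileum replicate 1 (adjusted p = 0.0658), at 0.38 without jejunum replicate 1 (adjusted p = 0.131) and at 0.29 without jejunum replicate 2 (adjusted p = 0.148). It was at 0.01 (adjusted p = 0.938) when cells at 5% to 10% were set against those under 5%, and 8 of 15 alternatives called it. In that fit of 5% to 10% against under 5%, Fos, Junb, Egr1, Egr2, Atf3, Ier2 and Rhob were called lower, where 3191 of 14786 genes were. Jun (1153, 1060, 861 and 926 against 1406, 1140, 1051 and 1098 CPM) and Klf4 were higher in high cells of all 4 libraries but were not called, and 25.9% of all genes were higher in all 4. Lower in all 4, as Rhob, Junb and Egr2 were, were 20.6% of all genes. The sum of the 10 genes barely differed between low and high cells, at 3421 and 3363, 3028 and 2732, 2988 and 3046, and 3225 and 3503 CPM. Within cells of the middle tercile by villus tip score, Rhob (-0.59), Junb (-0.58) and Fosb (0.61) were called and Egr2 (-0.49) was not. Without the library block Junb (-0.64) was the 1 member that passed.

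High cells differed from low cells in more than the mt- share. Their median depth was 2450 to 3363 nuclear-gene UMIs against 8910 to 16460, and at 2000 UMIs per cell Rhob (-0.59), Junb (-0.53) and Fosb (0.65) passed but Egr2 (-0.43) did not. The nuclear RNA Malat1 was at 2904 to 4799 CPM in high cells against 808 to 1433 CPM in low cells. Summed goblet markers were at 134 to 409 against 48.9 to 187 CPM, Paneth markers at 43.1 to 70.0 against 13.3 to 24.5 CPM and enteroendocrine markers at 65.9 to 77.8 against 37.8 to 46.2 CPM. Endothelial markers were at 24.6 to 31.5 against 36.8 to 51.3 CPM, and 0 of the markers on any of these lists were at 0 in every library. The part of these measures in the members' values was not tested. Of 51 other early response genes, 10 rose, led by Arc (1.72), Ier5l (1.67) and Fosl1 (1.13), another Fos-type AP-1 subunit, and 16 fell, led by the RNA decay factor gene Zfp36 (-1.28), Dusp6 (-1.17) and Cebpb (-1.02). Among 12 heat shock genes Hsp90ab1 (0.43) and Hsp90aa1 (0.40) rose and the mitochondrial chaperone genes Hspe1 (-0.80) and Hspd1 (-0.46) fell with Dnaja1 (-0.58). Among 9 stress response genes Ddit3 rose (1.32) and Herpud1 fell (-0.60).

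**Figure D5:**
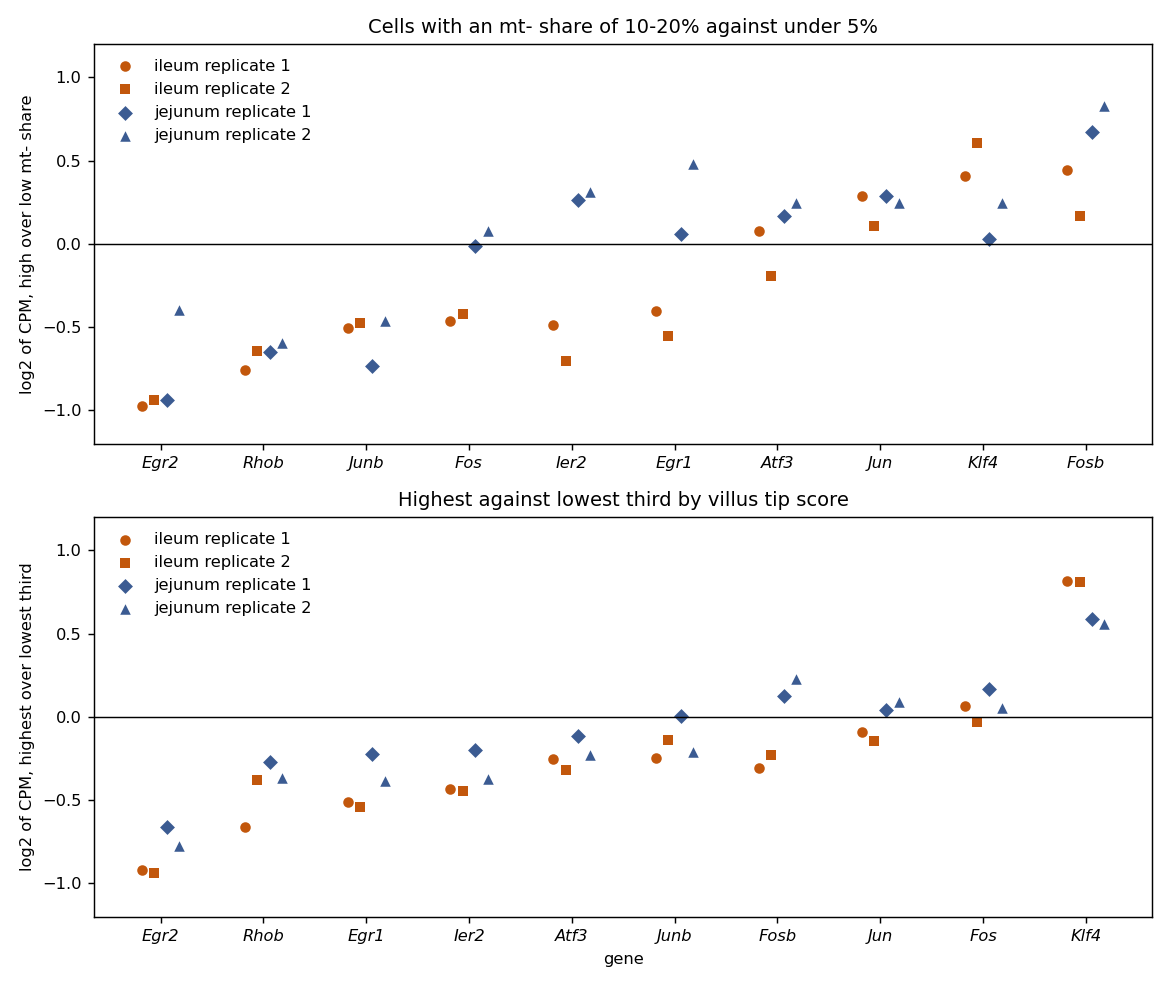
Log2 ratio of each immediate early gene's nuclear CPM in enterocyte-like cells, per library. The upper panel sets cells with an mt- share of 10% to 20% against those under 5%, and the lower panel sets the highest against the lowest tercile by villus tip score. In the upper panel Ier2 and Egr1 are below 0 in both ileum libraries and above 0 in both jejunum libraries, and in the lower panel Klf4 is above 0 (0.56 to 0.82) and Egr2 below (-0.94 to -0.66) in all 4.

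For 3 members the relation to the mt- share itself differed between the regions. The bins did not hold the same shares: the median in high cells was 12.0% and 12.2% in the ileum against 13.3% and 14.5% in the jejunum. In low cells it was 3.22% and 3.22% against 3.76% and 3.90%, and the part of these differences was not tested. Ier2 went from 264 and 262 CPM in low cells to 188 and 161 CPM in high cells of the ileum, but from 197 and 212 to 235 and 263 CPM in the jejunum. Egr1 went from 247 and 148 to 187 and 101 CPM in the ileum and from 215 and 176 to 224 and 246 CPM in the jejunum. Fos went from 248 and 279 to 180 and 209 CPM in the ileum and stayed near its level in the jejunum, at 264 and 333 in low against 262 and 351 CPM in high cells. The interaction of region and mt- share was -1.02 ± 0.18 log2 units for Ier2 (adjusted p = 0.00249), -0.88 ± 0.19 for Egr1 (adjusted p = 0.00920) and -0.60 ± 0.18 for Fos (adjusted p = 0.0472). In this test 2.99% of 16190 genes were called in that direction, 1.07% in the other and 4.06% in either. The median was -0.44 over the members and -0.08 over all genes. Fosb (-0.59, adjusted p = 0.0581) had the same sign and did not pass. No member was called without jejunum replicate 1 or without jejunum replicate 2, where 39 and 19 of all genes were called against 657 with all libraries. Fos was called in 3 of 12 alternatives, at -0.67 to -0.34, and not without ileum replicate 2. In the lists, 0 of 51 other early response and 0 of 12 heat shock genes were called by edgeR or DESeq2, with 7 and 3 at an unadjusted p under 0.05. Ddit3 (-0.97) and Atf4 (-0.68), 2 of 9 stress response genes, were lower.

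Position along the villus, as scored by tip genes, split the members into a gene that rose, 5 that fell and 4 that did not pass. Enterocyte-like cells were scored within each library by Ada, Nt5e, Slc28a2, Enpp3 and Apoa4, known genes of the villus tip, and the highest tercile was set against the lowest tercile (1365 to 2440 cells each). This score is a range and not a cell type, and cells near its limits could fall on either side. Klf4 went from 170, 143, 109 and 119 CPM in the lowest tercile to 300, 251, 164 and 176 CPM in the highest, and was seen in 26.8%, 25.5%, 19.5% and 16.9% against 44.9%, 39.6%, 27.0% and 29.4% of cells at equal depth. It was the 1 member that rose (0.75 ± 0.05, adjusted p = 8.05e-06), in 4 of 4 libraries.

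Egr2 went the other way, from 24.5, 20.7, 15.7 and 23.2 CPM to 13, 10.8, 9.91 and 13.6 CPM (-0.80 ± 0.07, adjusted p = 3.7e-05). Egr1 went from 277, 161, 224 and 216 to 194, 111, 192 and 165 CPM (-0.37, adjusted p = 0.00055), so both Egr genes fell in 4 of 4 libraries. Rhob (-0.38, adjusted p = 0.000843), Ier2 (-0.32, adjusted p = 0.000661) and Atf3 (-0.19, adjusted p = 0.0087) also fell in 4 of 4 libraries. None of the other AP-1 subunits was called: Fos was at 0.11 (adjusted p = 0.0891), Junb at -0.10 (adjusted p = 0.127), Jun at 0.02 and Fosb at -0.00. In all, 6 of 10 members passed, 1 higher and 5 lower, where 30.1% of 15947 genes did, 14.2% higher and 15.9% lower, and the median was -0.14 over the members and 0.01 over all genes. Higher values in the highest tercile of all 4 libraries were seen for 17.2% of all genes. Lower values in the highest tercile of all 4 libraries were seen for 27.6% of all genes. The same number, 6, passed in cells with an mt- share under 5%, where 3387 of 14899 genes did. There Fos (0.16) was called and Atf3 (-0.12) was not, and Klf4 was at 0.59. Atf3 was not called without ileum replicate 2 either. Without the library block 0 members and 12 of all genes passed.

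Depth, mt- share and some markers went with the score. Median depth was 4620.5 to 13471 nuclear-gene UMIs in the highest and 6660 to 13873 in the lowest tercile, the median mt- share 3.95% to 10.3% against 3.24% to 7.09%, and summed goblet markers 85.1 to 280.2 against 58.2 to 150 CPM. The mt- share was varied only in the cells under 5% given above. With cells thinned to 2000 nuclear-gene UMIs, Klf4 was called higher and Egr1, Egr2, Rhob, Ier2 and Atf3 lower, where 3463 of 11859 genes were called. The part of the markers was not tested. Early response genes on the wider list mostly fell where they passed: 21 of 51 fell, led by Myc (-1.15), Arc (-0.99) and Nr4a1 (-0.90), and 4 rose, among them Dusp1 (0.55), Phlda1 (0.47) and Txnip (0.45). Of 12 heat shock genes Hspa1a (0.80), Dnajb1 (0.24) and Hspa8 (0.15) rose and Hspe1 (-0.70), Hspd1 (-0.65) and Hsp90ab1 (-0.23) fell. Of 9 stress response genes Trib3 (1.06), Ddit3 (0.58) and Sesn2 (0.49) rose and Asns (-0.42) fell.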

How the data were processed

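The deposited matrices hold raw UMI counts per gene and called cell, which the authors made with PIPseeker at sensitivity level 3 (version not given in the sources used here). The submitters' processing notes name build GRCm39, so no coordinates of these genes are given in that build, and promoters come from RefSeq on GRCm38.p6. The limits the study describes were applied: cells needed over 1000 and under 6000 genes and an mt- share under 20%, and genes had to appear in 3 or more cells. Scrublet (scanpy 1.11.5, Python 3.11.15) marked 1, 2, 1 and 2 cells, too few to have worked, so no cell was removed, and the highest 6% of scores per library were left out as an alternative. Cells were clustered in Seurat 5.3.0 (R 4.3.3) without the 10 members, the other early response, heat shock and stress response lists and mt- genes. The 23 clusters were named from marker lists, with thresholds chosen on these data. UMIs were summed per library and class, and tested with edgeR 4.0.16 (filterByExpr, TMM, quasi-likelihood, Benjamini-Hochberg over all genes tested). DESeq2 1.42.0 was an alternative. Intervals cover counting error only.

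Named genes are the 10 members, up to 3 called genes with the highest and 3 with the lowest change from each of the other early response (54 genes), heat shock (12) and stress response (10) lists, and the 10 non-members most correlated with the members' sum in enterocyte-like cells (at least 0.05 UMIs per cell at 2000 UMIs in each library). The members and lists were chosen with earlier results of these data known. Same-numbered libraries came from the same mouse, by the series description, and their deviations from the region means correlated at 0.421 for the enterocyte-like and 0.267 for the stem/progenitor-like sums (2 pairs). With 2 mice, p-values cover the spread between these libraries. Fits were also run on simulated counts drawn with no library or mouse effect, so that check does not cover the pairing of these libraries.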

Additional observations from a re-analysis of the deposited data

Results flagged for a closer look

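In enterocyte-like cells the difference between cells with an mt- share of 10% to 20% and those under 5% was not the same in the ileum and the jejunum for 3 of the 10 members, by the edgeR test of the interaction itself (n = 2 libraries per region). The interaction, ileum minus jejunum on the log2 scale, was -1.02 for Ier2, -0.88 for Egr1 and -0.60 for Fos. The mean log2 difference per library was -0.60 in the ileum and 0.29 in the jejunum for Ier2, -0.48 and 0.27 for Egr1, and -0.44 and 0.03 for Fos. The high-share cells of the ileum numbered 232 and 483, against 2132 and 2196 in the jejunum. Their median mt- share was 12.0% and 12.2% against 13.3% and 14.5%. None of the 3 was called without jejunum replicate 1 or without jejunum replicate 2, nor when cells under 5% were set against cells at 5% to 10%, and 39, 19 and 21 of all genes were called in these fits against 657. Fos was called in 3 of 12 alternatives, with an interaction of -0.67 to -0.34 over all 12.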

How the results depend on the processing

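Of 739 estimates for single members under the alternatives, 657 kept their side of the threshold, 46 were no longer called, 36 became called and 0 turned a call around. The 657 include 36 estimates that were called in neither fit and changed sign. For region in enterocyte-like cells, where 0 members were called, 1 was called with the mouse (replicate number) as a block, with an mt- share of 5% to 10% and with all kept cells, and 2 with DESeq2. Leaving out 1 library gave 0 to 1. For region in stem/progenitor-like cells, where 3 were called, 7 were called with that block, 5 with no filter on low counts and 0 with an mt- share of 5% to 10%, and leaving out 1 library gave 0 to 5. Genes called of all tested went from 1311 to 3091 with the block and 3031 with DESeq2 in enterocyte-like cells, and to 170 without ileum replicate 1, 305 without jejunum replicate 2 and 527 without ileum replicate 2. In stem/progenitor-like cells they went from 305 to 1308 with the block, 807 with no filter and 59 with an mt- share of 5% to 10%, and to 201 to 841 with 1 library left out. For the mt- share 4 were called, where 4726 of 14540 genes were. With no replicate block 1 was called (1674 of all genes). With cells at 5% to 10% against those under 5%, 7 were called, where 5372 of 14786 genes were. All 7 (Fos, Junb, Egr1, Egr2, Atf3, Ier2 and Rhob) were lower in the cells at 5% to 10%. Of all genes in that fit, 3191 were called lower and 2181 higher. Leaving out 1 library in the mt- share comparison gave 3 to 6 (2745 to 5578 of all genes). For its interaction with region, where 3 were called, 0 were called with cells at 5% to 10%, and leaving out 1 library, added after seeing the data, gave 0 to 5. Of all genes, 657 were called there, 21 with cells at 5% to 10% and 19 to 1830 with 1 library left out. For the villus tip score 6 were called, where 4797 of 15947 genes were. With no replicate block 0 were called (12 of all genes), and leaving out 1 library gave 5 to 6 (3016 to 4413 of all genes). The difference in summed UMIs per enterocyte-like cell at equal depth (0.380) turned to -0.0321 without ileum replicate 1, and leaving out 1 library gave -0.0321 to 0.793. The replicate block changed no other call beyond those given with the results. The cause of these shifts was not tested. Depth limits Egr2 most, which was seen in 2.00% to 3.34% of enterocyte-like cells at 2000 UMIs.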
